A study of Mus musculus with 12 samples.

Results

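The CXC chemokines Cxcl9, Cxcl10, Cxcl11, Cxcl12, Cxcl13 and Cxcl16 were followed in mouse brain across 4 genotypes. These 6 genes, of 12393 with a value, were taken by name from the platform annotation, and they were measured by 10 of the 22690 probe sets of the array. The study asked what USP18 does in the central nervous system of the mouse, and RNA of whole-brain lysate was hybridised to 12 Affymetrix 3' expression arrays, 3 per genotype. The 4 genotypes were USP18ko, which lacks the Usp18 gene, USP18ko:IFNARko, which lacks both Usp18 and the type I interferon receptor chain Ifnar1 and is called the double knockout here, IFNARko, which lacks Ifnar1 alone, and WT, the wild type. All mice were adult, untreated and kept free of specific pathogens. The sources used here give no strain, sex, exact age, kind of knockout allele or batch. The labels number the replicates 1 to 3 but do not say that each was a separate animal. The p-values rest on the scatter of arrays within genotypes, pooled over all 12 arrays in 1 fit, and this scatter may be technical. Levels are log2 signals as the authors deposited them, a difference of 1 is a doubling of signal, and no detection call was available.

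USP18 is a protease that removes the ubiquitin-like modifier ISG15 from proteins, and it also binds a chain of the type I interferon receptor and dampens signalling from it. Type I interferon acts through this receptor on a transcription factor complex that contains IRF9 and binds interferon-stimulated response elements in the promoters of its target genes. CXC chemokines are small secreted proteins that guide leukocytes through receptors on the cell surface. CXCL9, CXCL10 and CXCL11 share the receptor CXCR3 of activated T cells and NK cells and are known as interferon-induced chemokines, whereas CXCL12, which signals through CXCR4 and ACKR3, is made without stimulation in brain vessels, meninges and neurons and guides cell migration in development. CXCL13 attracts B cells through CXCR5, and CXCL16 is a membrane-bound chemokine and scavenger receptor whose shed form acts on CXCR6.

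In USP18ko brains, Cxcl10 and Cxcl11 rose against WT, and in double-knockout brains both fell against USP18ko. No call was made for Cxcl9, Cxcl13, Cxcl16 and Cxcl12 in any comparison of 1 probe set per gene. A gene counted as called, and is written as having risen or fallen, where its adjusted p in limma's moderated test, corrected by Benjamini-Hochberg over all 12393 genes, was under 0.05. By this rule 2 of the 6 chemokines were higher in USP18ko than in WT, where 1.15% of all genes were called higher. Their median log2 difference was 0.57 over the 6 chemokines and -0.02 over all genes. At an unadjusted p under 0.05 by limma the count was 4 of 6 chemokines and 570 of 12393 genes. In the double knockout against USP18ko, 2 of 6 were lower, where 1.48% of all genes were called lower. The unadjusted count there was 4 of 6 chemokines and 614 of 12393 genes. The 6 chemokines were chosen with earlier results of these data known, so a count above such a share is a description and not a test.

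**Figure D1:**
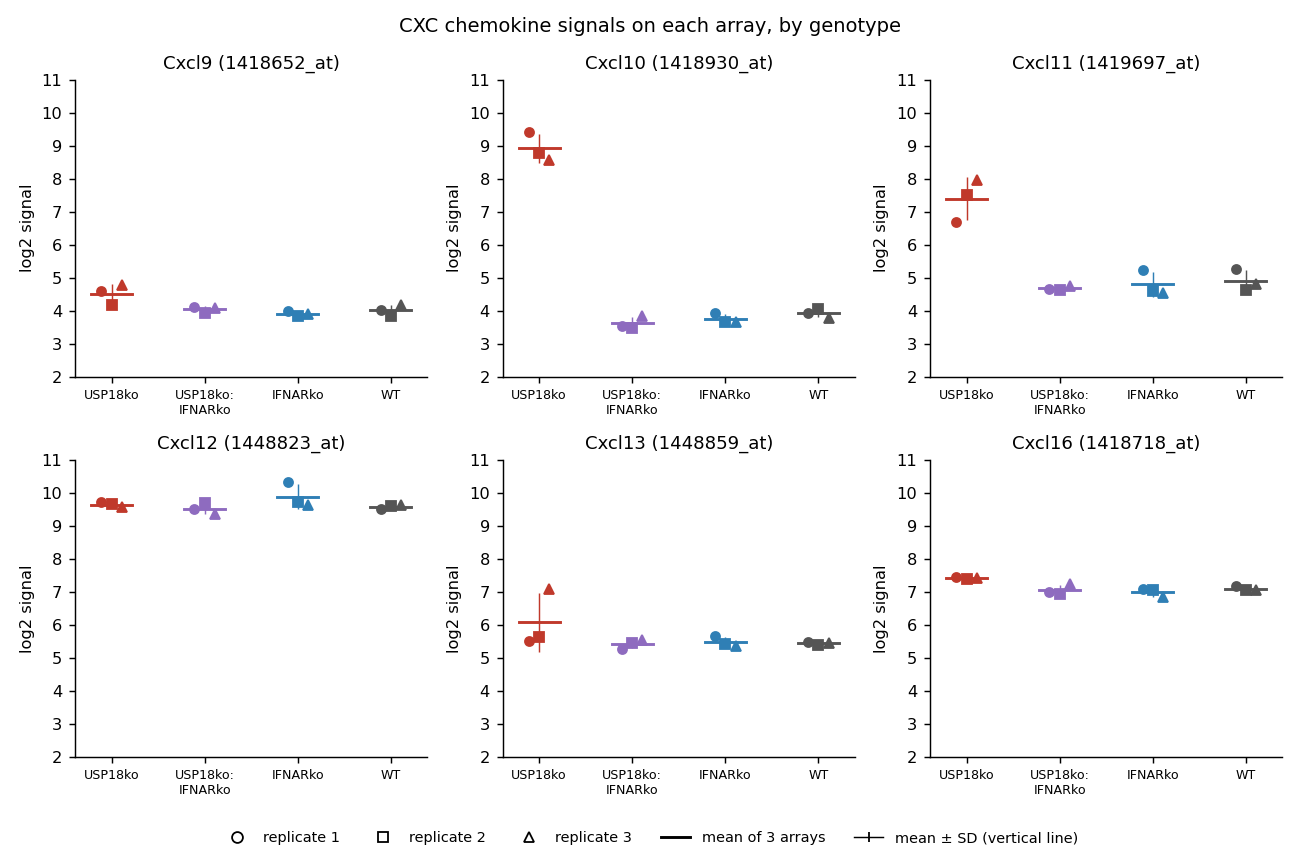
Log2 signal of each of the 6 CXC chemokines (y axis, one panel per gene) in every array of the 4 genotypes (x axis), with 1 point per array, a bar at the mean of 3 and a vertical line over the mean ± SD. Cxcl10 reads 8.57 to 9.42 in USP18ko and 3.49 to 4.04 in the other 9 arrays, whereas Cxcl12 reads 9.36 to 10.32 in all 12.

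Before the values, the promoter sequence of Cxcl10 is shown because it is the member with the largest difference and the one in which searched motifs were found. Cxcl9, which lies near it and was not called, and Cxcl12, which was not called in any comparison, are shown for comparison. Each sequence is the 250 bases before the annotated start, from RefSeq on GRCm38.p6, written 5' to 3' in the direction of transcription. Capitals mark a match to GAAA and GAAA parted by any 2 bases, the core of the interferon-stimulated response element, or to GGGA and TTCC parted by any 2 bases, a form of the NF-kappaB site.
Cxcl10: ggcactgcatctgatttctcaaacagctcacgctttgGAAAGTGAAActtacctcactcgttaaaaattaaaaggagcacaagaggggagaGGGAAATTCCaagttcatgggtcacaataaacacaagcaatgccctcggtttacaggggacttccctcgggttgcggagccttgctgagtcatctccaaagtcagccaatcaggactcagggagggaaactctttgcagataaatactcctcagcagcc
Cxcl9: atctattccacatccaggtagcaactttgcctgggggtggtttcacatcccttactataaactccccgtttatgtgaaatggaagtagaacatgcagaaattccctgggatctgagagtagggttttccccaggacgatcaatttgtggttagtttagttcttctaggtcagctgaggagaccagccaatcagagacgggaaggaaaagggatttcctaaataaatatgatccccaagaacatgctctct
Cxcl12: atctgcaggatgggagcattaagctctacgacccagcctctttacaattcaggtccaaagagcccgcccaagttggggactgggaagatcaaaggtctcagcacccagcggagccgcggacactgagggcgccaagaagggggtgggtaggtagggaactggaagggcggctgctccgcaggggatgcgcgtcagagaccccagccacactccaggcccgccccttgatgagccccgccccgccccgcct
The Cxcl10 window lies at chr5:92348890-92349139 on the minus strand, the Cxcl9 window at chr5:92328080-92328329 on the minus strand, and the Cxcl12 window at chr6:117168285-117168534 on the plus strand. Both strands were searched for these motifs and for TTC and GAA parted by any 3 bases, a form of the STAT site. In Cxcl10, the response element core read GAAAGTGAAA at bases -213 to -204 from the start, and the NF-kappaB form read GGGAAATTCC at bases -159 to -150, and the matches did not overlap. The STAT form was not among its letters. In the windows of Cxcl9, Cxcl12 and Cxcl13, the last at chr5:95956689-95956938 on the plus strand, these letters did not occur. Windows for Cxcl11 and Cxcl16 were not analysed here. Among all 32851 promoter windows of this length, 2.98% held the response element core, 7.02% the STAT form and 1.21% the NF-kappaB form. A match describes letters only, and binding was not measured.

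Cxcl10, the CXCR3 ligand best known as an interferon-inducible protein, had the largest difference of all 12393 genes between USP18ko and WT (probe set 1418930_at). Its log2 signal was 9.42, 8.77 and 8.57 in USP18ko and 3.52, 3.49 and 3.84 in the double knockout. It was 3.93, 3.65 and 3.65 in IFNARko and 3.94, 4.04 and 3.78 in WT. Every USP18ko array stood more than 4 log2 units above every other array, and the other 9 arrays lay between 3.49 and 4.04. The means were 8.92 ± 0.45 in USP18ko, 3.62 ± 0.19 in the double knockout, 3.74 ± 0.16 in IFNARko and 3.92 ± 0.13 in WT (SD, n = 3 each). Cxcl10 rose in USP18ko by 5.0 against WT (SE 0.19, 95% confidence interval 4.59 to 5.41, adjusted p = 8.13e-09). It fell by 5.30 in the double knockout against USP18ko (95% confidence interval of the difference -5.71 to -4.89, adjusted p = 3.89e-09). Both comparisons use the same 3 USP18ko arrays, so they are not independent of each other.

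Cxcl11, the CXCR3 ligand that binds the receptor most tightly, moved in the same directions by its brighter probe set, 1419697_at. Its log2 signal was 6.69, 7.51 and 7.97 in USP18ko and 4.66, 4.62 and 4.75 in the double knockout. It was 5.24, 4.59 and 4.54 in IFNARko and 5.28, 4.63 and 4.81 in WT. The USP18ko arrays did not overlap with any other group, and replicate 1 was the lowest of them. The means were 7.39 ± 0.65 in USP18ko, 4.68 ± 0.07 in the double knockout, 4.79 ± 0.39 in IFNARko and 4.90 ± 0.33 in WT (SD, n = 3 each). Cxcl11 rose in USP18ko by 2.49 against WT (SE 0.28, adjusted p = 1.97e-04), the rank 32 of 12393 genes by difference. It fell by 2.71 in the double knockout against USP18ko (95% confidence interval of the difference -3.32 to -2.10, adjusted p = 7.20e-05).

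The other probe set of Cxcl11, 1419698_at, was near the bottom of the array's range, at the 3.16th percentile of mean signal, and gave no call. It read 2.96, 3.26 and 3.49 in USP18ko, against 3.26, 2.82 and 2.86 in WT, and these groups overlap. Its difference was 0.25 (95% confidence interval -0.08 to 0.59, adjusted p = 1.00), so the Cxcl11 probe sets disagree. With the Cxcl11 probe sets averaged, the difference between USP18ko and WT was 1.37 and the gene was still called. The annotation used here, built on the C57BL/6J strain, lists Cxcl11 as a transcribed pseudogene. A rise in Cxcl11 signal is therefore given as a rise in transcript, with no statement on protein.

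Cxcl9, the CXCR3 ligand best known as an interferon-gamma target, had a low signal on its 1 probe set, 1418652_at, and missed the threshold. It read 4.60, 4.16 and 4.77 in USP18ko and 4.11, 3.94 and 4.07 in the double knockout. IFNARko read 3.99, 3.83 and 3.88, and WT 4.01, 3.83 and 4.18. The lowest USP18ko array, replicate 2, lay just under the highest WT array, whereas all USP18ko arrays lay above those of the double knockout and of IFNARko. The difference between USP18ko and WT was 0.50 (SE 0.15, 95% confidence interval 0.18 to 0.82, adjusted p = 0.266), and that between the double knockout and USP18ko was -0.47 (95% confidence interval -0.79 to -0.15, adjusted p = 0.288). Without USP18ko replicate 2, the Cxcl9 differences were 0.67 (adjusted p = 0.0256) and -0.64 (adjusted p = 0.0305), both past the threshold, so the result depends on this array. With array weights and no array left out, the difference between the double knockout and USP18ko also passed, at -0.50 (adjusted p = 0.00979).

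**Figure D2:**
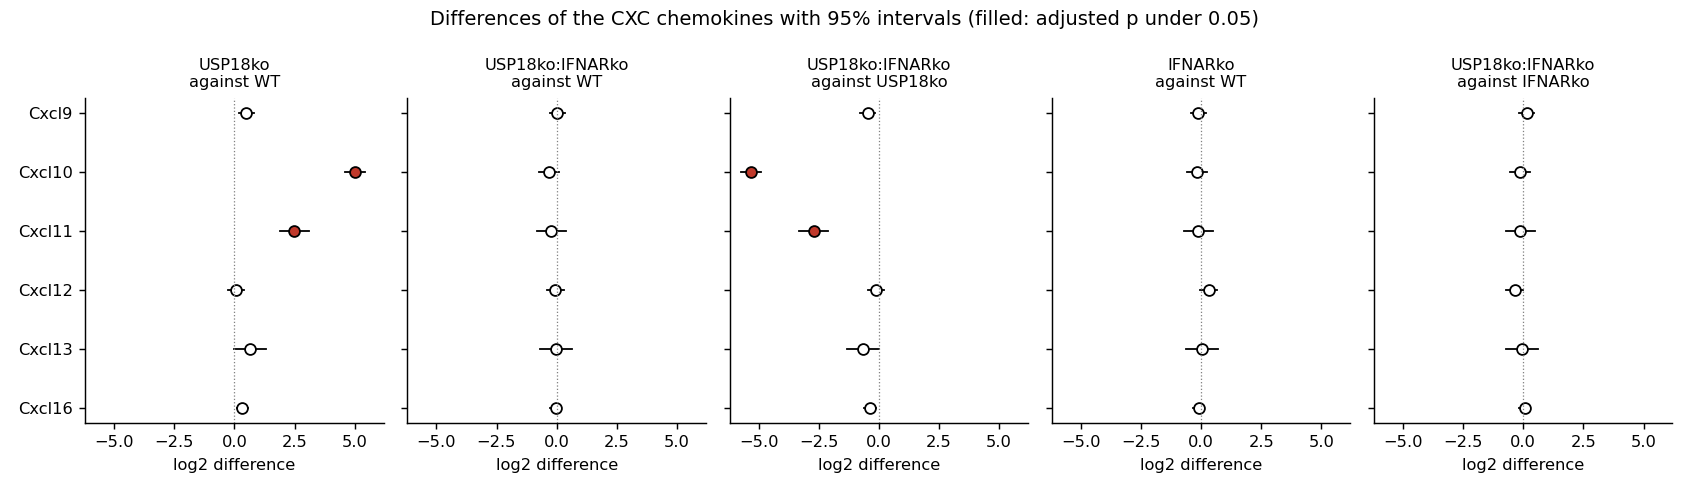
Log2 difference (x axis) of each CXC chemokine (y axis) in the 5 comparisons of 2 genotypes, one panel each, with filled points for called genes, points at the estimate and lines over the 95% confidence interval from limma's fit of all 12 arrays. The estimates of Cxcl10 and Cxcl11 for USP18ko against WT, 5.0 and 2.49, lie far from 0, and the 4 other chemokines lie between 0.07 and 0.64.

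Cxcl13, the B cell attractant, was read by a pair of probe sets whose USP18ko signals were spread widely. The brighter one, 1448859_at, read 5.50, 5.64 and 7.09 in USP18ko and 5.28, 5.47 and 5.55 in the double knockout. IFNARko read 5.66, 5.44 and 5.35, and WT 5.47, 5.39 and 5.47. Replicate 3 of USP18ko stood apart, while the other USP18ko arrays were just above WT and below the highest IFNARko array. The difference between USP18ko and WT was 0.64 (SE 0.31, 95% confidence interval -0.03 to 1.30, adjusted p = 1.00), and without USP18ko replicate 3 it was 0.13. The difference between the double knockout and USP18ko was -0.65 (adjusted p = 1.00) and -0.14 without that array.

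The other probe set of Cxcl13, 1417851_at, showed the same array as the highest. It read 4.48, 5.26 and 7.49 in USP18ko and 4.11, 4.12 and 4.17 in the double knockout. IFNARko gave 4.74, 3.87 and 3.77, and WT 4.07, 4.21 and 4.17. Here all USP18ko arrays lay above all WT and double-knockout arrays, but IFNARko replicate 1 lay above USP18ko replicate 1. The difference between USP18ko and WT was 1.59 (SE 0.56, 95% confidence interval 0.38 to 2.81, adjusted p = 0.714 over all probe sets), and 0.72 without USP18ko replicate 3. With arrays weighted by their scatter it was 1.56 with an adjusted p of 0.0188, so the call for this Cxcl13 probe set depends on the weighting. In mean signal of lymphocyte markers, USP18ko replicate 3 read 4.94 for T cells, 4.45 for B and plasma cells and 4.62 for NK cells. On the NK cell list it was the highest of the 12 arrays, with IFNARko replicate 1 next at 4.59. On the other lists only IFNARko replicate 1 was higher, at 4.96 for T cells and 4.63 for B and plasma cells. IFNARko replicate 1 was also the array least like the others, as given below, which limits it as a comparator. The part of these cells in the Cxcl13 signal was not tested.

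Cxcl16, the membrane-bound ligand of CXCR6, shifted by less than Cxcl10 and Cxcl11 in its USP18ko arrays, which were close together on the brighter probe set, 1418718_at. That probe set read 7.45, 7.39 and 7.43 in USP18ko and 7.0, 6.92 and 7.23 in the double knockout. It read 7.10, 7.07 and 6.83 in IFNARko and 7.17, 7.07 and 7.06 in WT. All 3 USP18ko arrays were above the other 9. The difference between USP18ko and WT was 0.32 (SE 0.11, 95% confidence interval 0.09 to 0.56, adjusted p = 0.483), and between the double knockout and USP18ko it was -0.37 (adjusted p = 0.225), so neither passed.

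The dimmer probe set of Cxcl16, 1449195_s_at, can, by its suffix, match more than 1 transcript of the gene or of a relative, and it gave larger differences. It read 5.37, 6.06 and 5.25 in USP18ko and 4.64, 4.79 and 4.30 in the double knockout. IFNARko arrays read 4.81, 4.64 and 4.50 and WT arrays 4.69, 4.47 and 4.56, so all USP18ko arrays were again above the other 9. In the fit of each probe set by itself, where 0.927% of 20380 probe sets were called higher in USP18ko than in WT and 1.12% lower in the double knockout than in USP18ko, Cxcl16 was higher by 0.99 in USP18ko (SE 0.20, 95% confidence interval 0.56 to 1.42, adjusted p = 0.0360). The difference between the double knockout and USP18ko was -0.99 (adjusted p = 0.0312). These calls were close to the threshold: the call against WT was lost without any 1 of 9 arrays, at 0.74 to 1.08, and the call against USP18ko without any 1 of 6, at -1.09 to -0.74. Both Cxcl16 calls were also lost with the Y-linked signal as a covariate, at 0.96 (adjusted p = 0.112) against WT and -0.94 (adjusted p = 0.299) between the double knockout and USP18ko. With the Cxcl16 probe sets averaged, the differences were 0.66 (adjusted p = 0.00909) and -0.68 (adjusted p = 0.00596), both past the threshold.

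**Figure D3:**
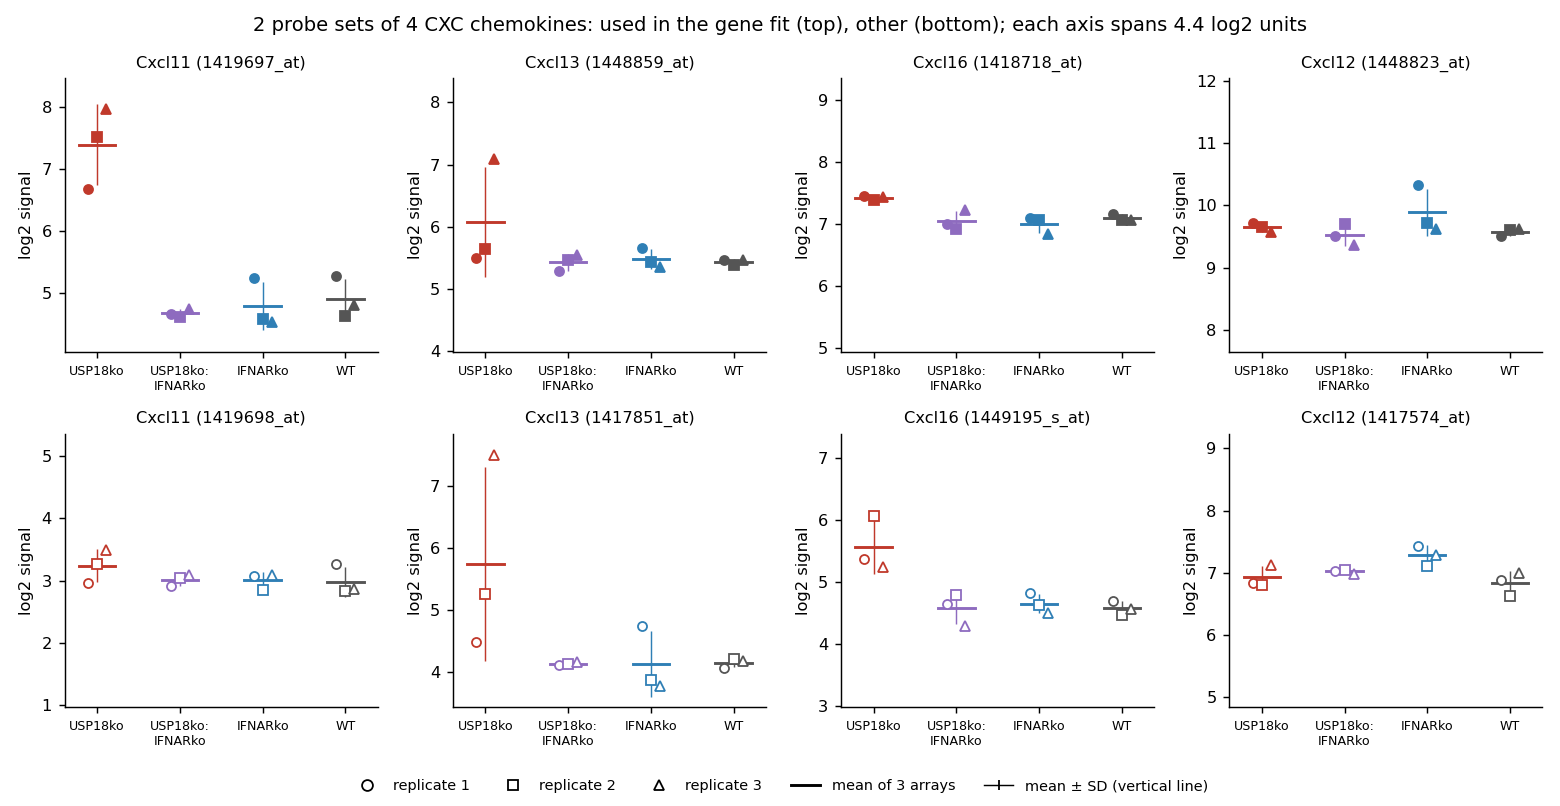
Log2 signal (y axis) for the brighter (top) and the dimmer (bottom) probe set of Cxcl11, Cxcl12, Cxcl13 and Cxcl16, by genotype (x axis), with 1 point per array, a bar at the mean and a vertical line over the mean ± SD. The dimmer Cxcl11 probe set stays between 2.82 and 3.49 in all 12 arrays, and USP18ko replicate 3 is the highest array on both Cxcl13 probe sets.

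Cxcl12, the ligand of CXCR4 and ACKR3, was at the 84.9th percentile of mean signal among all probe sets on probe set 1448823_at. Its signal was 9.72, 9.65 and 9.57 in USP18ko and 9.51, 9.70 and 9.36 in the double knockout. IFNARko read 10.32, 9.72 and 9.62, and WT 9.51, 9.60 and 9.63. The groups overlapped, and IFNARko replicate 1 was the highest array. The difference between USP18ko and WT was 0.07 (95% confidence interval -0.28 to 0.42, adjusted p = 1.00), and between the double knockout and USP18ko it was -0.12 (95% confidence interval -0.47 to 0.23, adjusted p = 1.00). A p that misses the threshold does not show equal levels, and the intervals give the sizes these arrays allow.

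In IFNARko, the Cxcl12 signal was 0.31 above WT (95% confidence interval -0.04 to 0.66, adjusted p = 0.528), and 0.09 above it without IFNARko replicate 1. That array had an actin 3' minus 5' difference of 1.48, against 0.20 to 0.54 in the other 11, a sign of RNA or labelling quality. Its highest correlation with any array was 0.974, against 0.991 to 0.998 for the other 11. Its part in this Cxcl12 value was measured only by leaving it out. It stayed in the main fit, whose estimate of spread is shared by all comparisons. The other probe set of Cxcl12, 1417574_at, was at the 49.6th percentile of mean signal. It read 6.84, 6.80 and 7.13 in USP18ko and 7.03, 7.05 and 6.98 in the double knockout. The values were 7.43, 7.11 and 7.29 in IFNARko and 6.87, 6.63 and 7.0 in WT. All IFNARko arrays were above all WT arrays on it, and the difference was 0.44 (95% confidence interval 0.16 to 0.73, adjusted p = 0.399), which did not pass.

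Of the 6 chemokines, 4 had USP18ko arrays that did not overlap with WT, namely Cxcl10, Cxcl11, Cxcl13 and Cxcl16, all with USP18ko higher, as did 4.07% of all genes. Between the double knockout and USP18ko, 4 did not overlap with the double knockout lower, namely Cxcl9, Cxcl10, Cxcl11 and Cxcl16, as did 8.09% of all genes. Only Cxcl10 and Cxcl11 also passed the test in these comparisons. By the rule used here Cxcl10 and Cxcl11 are the induced members. Cxcl9, Cxcl12, Cxcl13 and Cxcl16 were not called by the probe set used for the gene.

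The double knockout was also set against IFNARko, which asks whether Usp18 loss has an effect without the receptor. Against IFNARko, 0 of 6 chemokines were called, where 0% of all genes were called by limma. At an unadjusted p under 0.05 the count was 1 of 6 chemokines, Cxcl12, and 1022 of 12393 genes. Cxcl10 differed by -0.13 (95% confidence interval -0.54 to 0.28) and Cxcl11 by -0.12 (-0.73 to 0.50) between the double knockout and IFNARko. Cxcl12 differed by -0.36 (95% confidence interval -0.71 to -0.02, adjusted p = 0.566) and by -0.15 without IFNARko replicate 1.

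The difference between the effect of Usp18 loss with and without Ifnar1 was tested directly as an interaction of the genotypes. It was -5.12 for Cxcl10 (SE 0.27, 95% confidence interval -5.71 to -4.54, adjusted p = 4.34e-07) and -2.60 for Cxcl11 (SE 0.40, 95% confidence interval -3.46 to -1.74, adjusted p = 0.00451). These were the 2 of 6 chemokines called, both lower, where 0.823% of all genes were called lower. Cxcl9 had an interaction of -0.36, Cxcl12 of -0.43, Cxcl13 of -0.69 and Cxcl16 of -0.27 (adjusted p = 0.941 for each), none past the threshold.

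Against WT, neither receptor-deficient genotype had a called chemokine. In IFNARko 0 of 6 were called, where 0.00807% of all genes were, and 0 had an unadjusted p under 0.05. Cxcl10 was -0.18 from WT in IFNARko (95% confidence interval -0.59 to 0.24, adjusted p = 0.725) and Cxcl11 -0.11 (-0.72 to 0.50). In the double knockout 0 of 6 were called, where 0.0161% of all genes were, and again 0 had an unadjusted p under 0.05. Cxcl10 was -0.30 from WT there (95% confidence interval -0.72 to 0.11, adjusted p = 0.995) and Cxcl11 -0.23 (-0.84 to 0.38). Cxcl9, Cxcl12, Cxcl13 and Cxcl16 differed from WT by -0.11, 0.31, 0.04 and -0.10 in IFNARko and by 0.03, -0.05, -0.01 and -0.05 in the double knockout. All 24 alternatives also gave 0 called chemokines in both comparisons.

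The arrays were checked through the targeted genes, the brain label and sex-linked genes. Usp18 read 3.76, 3.58 and 3.55 in USP18ko and 3.50 to 3.71 in the double knockout, as low as the 3.53 to 3.67 of IFNARko, against 4.36, 4.36 and 4.04 in WT. Ifnar1 read 6.56, 6.56 and 6.68 in the double knockout and 6.24 to 6.59 in IFNARko, against 7.76 to 8.01 in USP18ko and 7.44 to 8.21 in WT. The mean signal of 9 neuron markers was 9.75 to 10.60 over the 12 arrays, so genes that define the labelled tissue had a high signal in every array. Where the array's probes lie relative to the deleted parts of Usp18 and Ifnar1 is unknown, which limits this check. Xist, expressed from the inactive X chromosome, was 10.17 to 11.34 in the 3 double-knockout arrays and WT replicate 1 and 4.98 to 5.69 in the other 8. The Y-linked gene Eif2s3y was 3.05 to 3.22 in double-knockout replicates 1 and 3 and WT replicate 1 and 7.16 to 8.94 elsewhere, so double-knockout replicate 2 had both signals. The labels do not give sex. By Xist, all double-knockout arrays were high and all USP18ko and IFNARko arrays low, so sex and genotype cannot be told apart in comparisons among these groups. With the Y-linked signal as a covariate, an alternative chosen after seeing the data, Cxcl10 was 5.04 higher in USP18ko than in WT and differed by -5.38 between the double knockout and USP18ko, and Cxcl11 by 2.59 and -2.93, all still called. Within a genotype, Eif2s3y differed widely only in WT and in the double knockout, where replicate 2 had both signals. This covariate therefore cannot settle the part of sex in comparisons with the double knockout.

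The receptors of these chemokines gave no call in any of the 6 comparisons. Of 5 receptors, 0 were called by limma between USP18ko and WT and 0 had an unadjusted p under 0.05, with a median log2 difference of -0.06. Cxcr3, the receptor of CXCL9, CXCL10 and CXCL11, was 5.05, 4.59 and 4.85 in USP18ko, against 5.18, 4.76 and 5.07 in WT, a difference of -0.17 (95% confidence interval -0.54 to 0.20). Cxcr4, a receptor of CXCL12, differed by -0.01 (95% confidence interval -0.31 to 0.29), and Ackr3, which takes up CXCL12, by -0.06 (-0.43 to 0.31). Cxcr5, the receptor of CXCL13, differed by 0.26 (-0.11 to 0.64), and Cxcr6, the receptor of CXCL16, by -0.12 (-0.37 to 0.13). Signals of Cxcr5 (3.55 to 4.28) and Cxcr6 (3.17 to 3.54) were low on every array. In whole brain, fewer cells of a type and less RNA per cell cannot be told apart.

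Enzymes that trim or shed these chemokines were also without a call. DPP4 clips the CXCR3 ligands and CXCL12, ADAM10 and ADAM17 release CXCL16 from the membrane, and the gelatinases MMP2 and MMP9 cleave several chemokines. Between USP18ko and WT 0 of 5 were called by limma, with a median of 0.02, and among other CXC ligands 0 of 8 measured, with a median of 0.12. In both lists 0 genes had an unadjusted p under 0.05. Cxcl1, a neutrophil attractant named here after its values were seen, read 3.23, 5.01 and 2.96 in USP18ko, against 2.94 to 3.12 in WT, so 1 USP18ko array, replicate 2, was high. Its difference was 0.71 (95% confidence interval -0.15 to 1.57, adjusted p = 1.00). Cxcl3 was not analysed here.

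**Figure D4:**
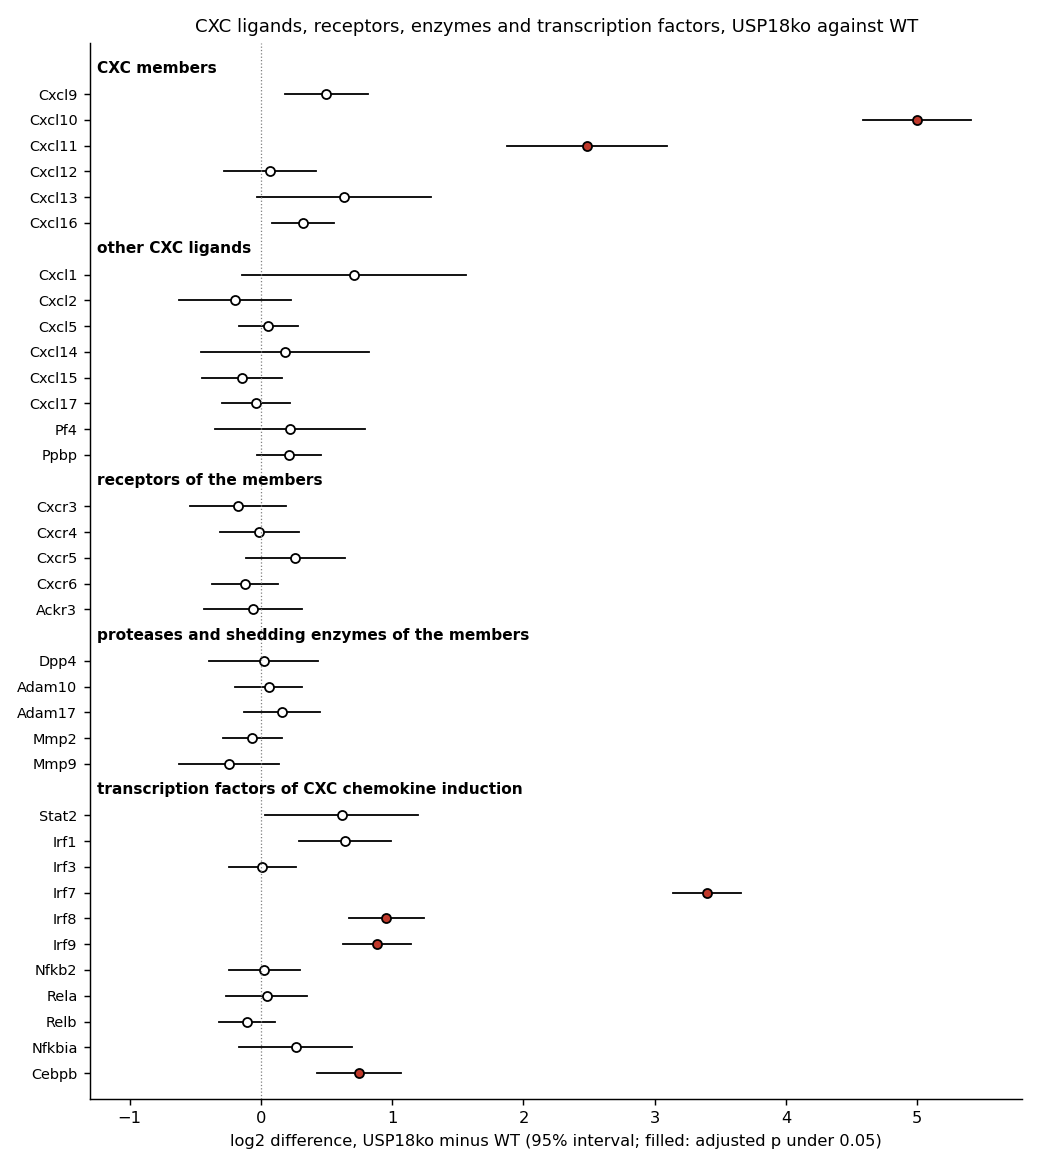
Log2 difference between USP18ko and WT (x axis) for the CXC chemokines, their receptors, trimming and shedding enzymes, other CXC ligands and transcription factors (y axis, grouped by role), with lines over the 95% confidence interval and filled points for called genes. The called genes are Cxcl10, Cxcl11, Irf7, Irf8, Irf9 and Cebpb, and the receptors lie between -0.17 and 0.26.

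Of the transcription factors known to act on these promoters, 4 of 11 measured were called higher in USP18ko than in WT, where 1.15% of all genes were. At an unadjusted p under 0.05 by limma the count was 6 of 11 factors and 570 of 12393 genes. The list was chosen with earlier results of these data known, so its counts are a description. The median log2 difference of the list was 0.62. Irf7, an amplifier of the interferon response, rose most in this list, by 3.40 (SE 0.12). It read 8.66, 8.24 and 8.66 in USP18ko and 5.22, 5.12 and 5.04 in WT. Irf8, a factor of myeloid cells, rose by 0.96 (SE 0.13), and Irf9, the DNA-binding subunit of the complex activated by type I interferon, by 0.88 (SE 0.12). Cebpb, a factor of inflammatory gene expression, rose by 0.75 (SE 0.15, adjusted p = 0.022), a call that 10 of 24 alternatives ended, among them the omission of any USP18ko array (0.68 to 0.79), of WT replicate 1 (0.61) or of WT replicate 3 (0.69). Irf1, which acts on the CXCR3 ligands downstream of interferon-gamma, differed by 0.64 (adjusted p = 0.126) and Stat2 by 0.62, neither past the threshold. Among NF-kappaB genes, Rela differed by 0.04, Relb by -0.10, Nfkb2 by 0.03 and the inhibitor Nfkbia by 0.27.

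In the double knockout against USP18ko, 5 of these 11 factors fell, where 1.48% of all genes were called lower. Irf7 fell by 3.76, Irf9 by 1.26, Irf8 by 1.20, Irf1 by 0.86 (adjusted p = 0.0134) and Cebpb by 0.85. The Irf1 call was lost without USP18ko replicate 1 or 3 or any double-knockout array, at -0.87 to -0.75, and with the Y-linked covariate, at -0.81. The Cebpb call was lost without double-knockout replicate 1 (-0.80) and with the Y-linked covariate (-0.65). The interaction was called for Irf7 at -3.26, Irf8 at -1.08 and Irf9 at -1.07. With the Y-linked covariate, Irf8 at -1.09 and Irf9 at -1.09 were not called in the interaction.

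Markers of the cell types that could carry or receive these chemokines were read beside them. Microglia markers were called for 3 of 12 between USP18ko and WT, all higher, with a median difference of 0.70: Aif1 by 1.93, the complement subunit C1qa by 1.79 and the integrin Itgam by 0.80. Of all genes 1.15% were called higher. At an unadjusted p under 0.05 by limma the count was 570 of 12393 genes and 8 of 12 microglia markers. The mean signal of the list was 7.61 to 8.25 in USP18ko, 7.0 to 7.01 in the double knockout, 6.92 to 7.07 in IFNARko and 6.62 to 7.59 in WT. The C1qa call was lost without USP18ko replicate 2 (1.57) or 3 (1.85) or WT replicate 3 (1.86), and the Itgam call without WT replicate 3 (0.77). Perivascular macrophage markers were called for 1 of 7, Ms4a7, by 1.74, and monocyte and neutrophil markers for 1 of 7, Plac8, by 3.35. The unadjusted counts of these lists were 3 of 7 and 4 of 7. The perivascular macrophage list averaged 6.16 to 6.53 in USP18ko, 5.57 to 5.85 in the double knockout, 6.0 to 6.37 in IFNARko and 5.52 to 5.92 in WT. The monocyte and neutrophil list averaged 5.35 to 5.52 in USP18ko, 4.25 to 5.02 in the double knockout, 4.22 to 4.85 in IFNARko and 4.28 to 4.47 in WT. In the double knockout against USP18ko, 4 of 12 microglia markers were lower, namely Aif1, C1qa, Itgam and C1qb, and Ms4a7 and Plac8 fell by 2.06 and 3.81. Of all genes 1.48% were called lower. The unadjusted counts were 9 of 12 microglia, 4 of 7 perivascular macrophage and 2 of 7 monocyte and neutrophil markers. Over all genes the unadjusted count was 614 of 12393. The Itgam call (-0.72) was lost without USP18ko replicate 2 or 3 or any double-knockout array, at -0.75 to -0.57, and the C1qb call (-1.82) without the same arrays, at -1.89 to -1.58. The C1qa call (-1.91) was lost without USP18ko replicate 2 or double-knockout replicate 1 or 3, at -1.93 to -1.70. With the Y-linked signal as a covariate, the calls of C1qa (-1.38, adjusted p = 0.192) and C1qb (-1.43, adjusted p = 0.284) between these groups were lost too. The marker lists were chosen with earlier results of these data known, so these counts are a description. The part of these cell types in the signal of Cxcl10 and Cxcl11 was not tested.

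Markers of lymphocytes, the cells that carry CXCR3, CXCR5 and CXCR6, gave no call by limma between USP18ko and WT, and 0 of them had an unadjusted p under 0.05. Of 9 T cell markers 0 were called between USP18ko and WT, with a list mean of 4.68 to 4.94 in USP18ko, 4.68 to 4.81 in the double knockout, 4.62 to 4.96 in IFNARko and 4.75 to 4.91 in WT. Of 5 NK cell markers 0 were called, with 4.18 to 4.62 in USP18ko, 4.29 to 4.32 in the double knockout, 4.16 to 4.59 in IFNARko and 4.23 to 4.46 in WT. Of 6 B cell and plasma cell markers 0 were called, with 4.19 to 4.45 in USP18ko, 4.23 to 4.38 in the double knockout, 4.22 to 4.63 in IFNARko and 4.31 to 4.37 in WT. All these lymphocyte means lie under the array medians of 6.98 to 7.07, and no detection call was available. The lack of calls therefore does not show that lymphocytes were unchanged. Markers of endothelium, pericytes and meninges, astrocytes, neurons, oligodendrocytes, choroid plexus and dendritic cells also had 0 calls between USP18ko and WT, and 1 of them, an astrocyte marker, had an unadjusted p under 0.05. The oligodendrocyte list was spread widely among WT arrays, at 6.93 to 9.84, against 7.39 to 8.48 in USP18ko. Its lack of calls therefore does not show equal levels, and the cause of the spread was not tested.

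Cxcl9, Cxcl10 and Cxcl11 lie together on chromosome 5, in the order Naaa, Sdad1, Cxcl9, Art3, Cxcl10, Cxcl11, Nup54 and Scarb2 in RefSeq. The neighbours, chosen by position, had no call between USP18ko and WT. Naaa differed by 0.20, Sdad1 by 0.25, Art3, which lies between Cxcl9 and Cxcl10, by 0.20, Nup54 by -0.10 and Scarb2 by 0.09 (adjusted p = 1.00 for each). Cxcl13 lies elsewhere on chromosome 5, Cxcl12 on chromosome 6 and Cxcl16 on chromosome 11.

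The genes whose signals followed the called chemokines most closely were ranked by the root mean square difference between log2 signals centred on each gene's mean over the 12 arrays. For Cxcl10, whose own root mean square about its mean was 2.25, the nearest were Ifit1 at 0.30, Ifit3 at 0.37, Ifi27l2a at 0.39, Rsad2 at 0.40 and Iigp1 at 0.47. Their log2 differences between USP18ko and WT were 4.87, 4.19, 4.37, 4.06 and 4.64, beside 5.0 for Cxcl10. Ifit1 and Ifit3 encode antiviral proteins that act on viral RNA, Rsad2 the antiviral enzyme viperin and Iigp1 an immunity-related GTPase. For Cxcl11, with a root mean square of 1.18 about its mean, the nearest were Parp14 at 0.31, Ccl5 at 0.32, Ms4a6c at 0.32, Gbp7 at 0.33 and Oasl1 at 0.34. Ccl5 is itself a T cell chemokine, of the CC family, and was 2.64 higher in USP18ko than in WT, beside 2.49 for Cxcl11. This likeness rests on 12 arrays of 4 genotypes and is a description. Genes ranked this way have differences close to those of the chemokine by construction, so the values set beside each other are no separate result.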

How the data were processed

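The authors deposited 1 log2 signal for each probe set and array, made with the R package affy, per the submitters' processing notes. The sources used here do not say how background was corrected, arrays were normalized and probes were summarised, or in which affy version. The log base of 2 was inferred from the values. Array medians were 6.98 to 7.07, and the number of arrays limits the precision. All columns belonged to the series' samples (0 others).

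The 6 chemokines and the gene lists were chosen with earlier results of these data known. Of 22690 probe sets, 64 were controls, 20380 had 1 gene, 691 several and 1555 were not listed in the platform annotation. Entrez identifiers of 20351 matched RefSeq, and 0 symbols changed. Each of 12393 genes was represented by its probe set of highest mean signal, and 4956 genes had several. Genotypes were compared with limma 3.58.1 in R 4.3.3, in 1 fit of 12 arrays with 8 residual and 4.67 prior degrees of freedom. Tests were two-sided. An exact test of 3 against 3 cannot go below 0.1. Self-tests on simulated data for USP18ko against WT (12393 genes, 200 changed, 5 runs) recovered 35.2% of genes changed by 0.5, 88.8% at 1, 99.2% at 2 and 100% at 4 on the log2 scale, and 4.04% of calls were false.

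The text names all members, the targeted genes, all receptors, list and marker genes that were called, and the 5 genes nearest in pattern to each called member. Other genes are named for their position or after their values were seen. Alternatives were the probe set rule, a filter that keeps genes above the 40th percentile, quantile normalization, median centring, array weights, trended and robust variance, a log2 difference of at least 1, a replicate block, only the groups compared, and each array left out. Same-numbered USP18ko and double-knockout arrays deviated together from their group means (r = 0.158, 0.273 and 0.136). Neither the labels nor the main fit, which held genotype only, treated them as paired, and pairing entered only as the replicate block. Arrays of unlike number were not compared, so whether these were pairs was not settled. No arrays were identical.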

Additional observations from a re-analysis of the deposited data

Results flagged for a closer look

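The effect of Usp18 loss on Cxcl10 and Cxcl11 differed between mice with and without Ifnar1, as tested by the interaction term of limma's fit. For Cxcl10 the effect in the absence of the receptor minus the effect in its presence was -5.12 on the log2 scale, and all 3 USP18ko arrays were above the other 9. For Cxcl11 it was -2.60, again with all 3 USP18ko arrays above the other 9. With 3 arrays per genotype, single arrays were not tested as outliers, though IFNARko replicate 1 was the least like the others by correlation.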

How the results depend on the processing

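Over the 6 comparisons, 36 differences of the chemokines were recomputed under the alternatives, which gave 834 values. Of these, 801 kept direction and side of the threshold, 6 were newly called, 0 lost a call and 27 uncalled values changed sign. Between USP18ko and WT, the difference of Cxcl10 ranged from 4.75 to 5.17 and that of Cxcl11 from 1.37, with averaged probe sets, to 2.84. Between the double knockout and USP18ko they ranged from -5.48 to -5.05 and from -3.06 to -1.47. Leaving out 1 array gave 2 to 3 called chemokines in each of these comparisons, 2 in the interaction and 0 in the others. The filter at the 40th percentile leaves out Cxcl9, Cxcl10, Cxcl11 and Cxcl13 by construction, so 0 chemokines were called under it in USP18ko against WT, the double knockout against USP18ko and the interaction, and the genes called were 28, 37 and 20, against 143, 187 and 105. With array weights, 4 chemokines (adding Cxcl9 at -0.50 and Cxcl16 at -0.38) and 500 genes were called between the double knockout and USP18ko, and 814 genes, against 0, between the double knockout and IFNARko. The cause was not tested. Estimating array weights gave a convergence warning in a setting not identified here, so results with array weights are given as alternatives only. With only the groups compared, 287 genes were called between the double knockout and USP18ko, and with the Y-linked covariate 60 in the interaction. Genes called in IFNARko against WT were 1, with 0 to 5 under alternatives, and in the double knockout against WT 2, with 0 to 3. With replicate number as a block, the called chemokines were 2, 0, 0, 2, 0 and 2 in the 6 comparisons (USP18ko, IFNARko and the double knockout against WT, the double knockout against USP18ko and against IFNARko, interaction), as without it, and the genes called 142, 0, 0, 178, 0 and 102. For the other pairs of genotypes, r of same-numbered arrays ran from -0.148 to 0.221, the highest for replicate 2 of USP18ko and WT. Signal over background was not available, so whether Cxcl9, Cxcl10 or Cxcl11 was present in WT brain could not be settled.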
